A study of Rattus norvegicus with 4 samples.

Results

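The sequences described here are 41 short unnamed small RNAs of 21 to 28 nt, out of 3129 sequences listed in the raw tag count table of a Piwil2 RNA immunoprecipitation (RIP) study of rat brain. Members were chosen by name and sequence alone. All listed sequences that shared any identical stretch of 20 bases were joined into families, and the members are those with names starting with novel_, a length of 28 nt or less and a family of 1 to 4 sequences. The families of 6 listed sequences (rno_piR_005567, rno_piR_000219, novel_9040_x213, novel_14794_x136, novel_1651_x1057 and novel_3644_x506) were left out by the rule. The 41 members belong to 29 of 307 families, 17 members being the only sequence of their family, and the table lists 76 other sequences of 28 nt or less.

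RNA was recovered from the hippocampal CA1 region of adult male Wistar rats of 7 to 8 weeks. The libraries were HPC0h (0 h, an abbreviation that the labels do not spell out), tGCI26h (transient global cerebral ischemia, 26 h), Sham and an IgG control. The first 3 are labelled as RIP libraries of these conditions in a series about RNA bound to Piwil2. The labels do not say which animals gave the IgG library, from which event the hours are counted, or whether animals were pooled. The table's columns for HPC0h, tGCI26h and Sham carry short codes that match those names in part only. There was 1 library per group, although the design text names more, so no test between conditions was possible, every comparison is between 2 libraries, and each 95% interval covers counting error only. PCR copies were not marked by molecular identifiers and are not independent molecules.

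PIWI proteins bind piRNAs, small RNAs that guide the silencing of transposons in germ cells. Primary piRNAs are typically longer than miRNAs and often begin with T (U in RNA), and secondary piRNAs often carry A at base 10. MicroRNAs are shorter, act with AGO proteins, and recognise their targets through bases 2 to 8, the seed. Box C/D small nucleolar RNAs, which guide the methylation of ribosomal RNA, carry a C box with the letters TGATGA and a D box with the letters CTGA. Transfer RNAs of many organisms, bacteria included, hold the letters TAGCTCAG or similar ones in and beside their D arm.

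The listed sequences summed to 830634 tags in HPC0h, 222511 in tGCI26h, 159215 in Sham and 668857 in IgG, and these totals were used to scale counts to a common library size (CPM, with the total of listed tags as the library size). The members held 1768, 2225, 963 and 21180 of these tags in the same order of libraries. That is 0.213% of HPC0h tags (exact 95% interval 0.203 to 0.223), 1.00% of tGCI26h tags (0.959 to 1.04), 0.605% of Sham tags (0.567 to 0.644) and 3.17% of IgG tags (3.12 to 3.21). The high IgG share came from a single sequence, novel_4906_x381. Without it the members held 0.163% of HPC0h tags (0.154 to 0.172), 0.752% of tGCI26h tags (0.717 to 0.789), 0.482% of Sham tags (0.449 to 0.518) and 0.211% of IgG tags (0.200 to 0.222), so that IgG then lay below tGCI26h and Sham and above HPC0h.

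The first set of sequences is shown because these 2 members, and no other of the 41, matched a mature miRNA of the RefSeq table for the rat (build GRCr8, 724 mature entries). The member is given in the letters of the deposited file and its mature miRNA in RNA letters, with bases 2 to 8 in capitals. The mature rno-let-7b-5p lies at chr7:118684044-118684065 on the plus strand, and rno-miR-222-3p at chrX:6022682-6022702 on the plus strand, each inside its miRNA gene, Mirlet7b and Mir222.
novel_4906_x381: tGAGGTAGtaggttgtgtggt
rno-let-7b-5p: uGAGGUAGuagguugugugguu
novel_5581_x335: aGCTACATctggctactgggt
rno-miR-222-3p: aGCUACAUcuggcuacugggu
The letters of novel_4906_x381 are bases 1 to 21 of the 22 bases of rno-let-7b-5p, and novel_5581_x335 is the whole of rno-miR-222-3p. The let-7b seed is shared by 9 mature miRNAs of the table and the miR-222 seed by 2, but each full member sequence lies in 1 mature miRNA only. Neither seed recurred among the other members. A further 4 sequences of the 2 deposited tables matched the miRNA table, and all of them carry rno_piR names.

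The member matching let-7b, a miRNA that is abundant in mature neurons, had 414 tags in HPC0h, 551 in tGCI26h, 195 in Sham and 19772 in IgG. These are 498, 2476, 1225 and 29561 CPM in that order. Within the Piwil2 libraries its level was highest in tGCI26h and lowest in HPC0h, and all 3 lay far below IgG. It was 2.46-fold lower in HPC0h than in Sham (95% interval 2.06 to 2.92) and 4.97-fold lower in HPC0h than in tGCI26h (4.37 to 5.66). In tGCI26h its level exceeded Sham 2.02-fold (1.71 to 2.39). The member held 93.4% of all member tags in IgG, against 23.4% in HPC0h, 24.8% in tGCI26h and 20.2% in Sham.

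The member matching miR-222-3p, whose gene lies beside that of miR-221, had 7 tags in HPC0h, 2 in tGCI26h and 16 in IgG and was not listed in Sham. It too had its highest level in IgG, and was 2.84-fold lower in HPC0h than in IgG (1.10 to 8.16). The member entered that comparison through its IgG count alone. Its ratio of tGCI26h to IgG did not pass the rule for a difference used below. At these counts no difference between the 3 Piwil2 libraries was measurable.

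The second set of sequences is shown because these members hold the box letters of small nucleolar RNAs or are end variants of one that does. Capitals mark TGATGA anywhere in the sequence, or CTGA within its last 6 bases. The RNA that each comes from, and whether it is an RNA of the rat, was not checked, since neither a genome nor transcripts were searched.
novel_4298_x434: accaaTGATGAgatctggtggcgtct
novel_17222_x119: agcctgTGATGAattcaatttc
novel_19323_x109: gccactatcatcgtgaCTGAg
novel_12738_x156: gggagatgaagaggacagtgaCTGAg
novel_9050_x213: gggagatgaagaggacagtgaCTGA
novel_19388_x108: atcgagactagagtcacatcCTGA
novel_3985_x465: atcgagactagagtcacatcctg
novel_9433_x204: atcgagactagagtcacatcct
On the strand listed, TGATGA stood in 3 of 41 members (7.32%) and in 17 of 3129 listed sequences (0.543%). It stood as often in the 76 other sequences of 28 nt or less, in 6 of them (7.89%). Its reverse complement stood in none of the members. The letters CTGA stood in the last 6 bases of 5 members (12.2%) and of 231 listed sequences (7.38%). They stood there in 6 of the 76 other short sequences (7.89%). Of the 182 unnamed sequences of 29 to 39 nt in families of 1 to 4, 26 held them there (14.3%). No member held more than 1 of the motifs searched. The other members with box letters, novel_5283_x354 and novel_3641_x507, are described with the members of low counts.

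The 3 nested members that begin atcgag and end at 22, 23 and 24 nt were found almost entirely in the IgG library. They had 69 tags (novel_19388_x108), 56 tags (novel_3985_x465) and 56 tags (novel_9433_x204) in IgG. In HPC0h each had 2 tags, in tGCI26h none was listed, and in Sham only novel_19388_x108 was listed, with 2 tags. The authors' normalized table, which fills many blank cells, gives each of the 3 sequences a value of 3 in HPC0h and 6 in tGCI26h. In Sham it gives them 22, 12 and 12, against 99, 79 and 77 in IgG. Their summed tags were 37.5-fold lower in HPC0h than in IgG (16.9 to 103) and 21.5-fold lower in Sham than in IgG (5.88 to 179). By the normalized table the family was 28.3-fold lower in HPC0h, 14.2-fold lower in tGCI26h and 5.54-fold lower in Sham, so the size of the Sham difference depends on the table. Each of the 3 entered the comparisons through its IgG count alone. With novel_4906_x381 they make up the 4 members lower in tGCI26h than in IgG, and the 4 lower in Sham than in IgG.

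Of the other measured members with box letters, in CPM novel_17222_x119 was highest in Sham, novel_4298_x434 and novel_19323_x109 in tGCI26h, and novel_12738_x156 in HPC0h. Some of these ranks were close. The ratio of tGCI26h to Sham was 1.13 (0.715 to 1.80) for novel_19323_x109. That of HPC0h to tGCI26h was 1.19 (0.612 to 2.54) for novel_12738_x156. The member novel_17222_x119 had 45 tags in HPC0h, 17 in tGCI26h, 50 in Sham and 59 in IgG, which is 54.2, 76.4, 314 and 88.2 CPM. Sham stood above the other 3 libraries: the level was 5.80-fold lower in HPC0h than in Sham (3.80 to 8.87), 4.11-fold lower in tGCI26h than in Sham (2.33 to 7.60), and 3.56-fold higher in Sham than in IgG (2.39 to 5.28). The member novel_4298_x434 had 23, 27, 2 and 25 tags in the order HPC0h, tGCI26h, Sham and IgG. Its ratios of HPC0h to Sham and of Sham to IgG did not pass the rule. In tGCI26h it exceeded Sham 9.66-fold (2.43 to 83.8) and IgG 3.25-fold (1.81 to 5.83), and it was 4.38-fold lower in HPC0h than in tGCI26h (2.42 to 8.00). The wide first interval rests on the 2 Sham tags. The member novel_19323_x109 had 26, 52, 33 and 82 tags in the same order and was lower in HPC0h than in each of the others, 7.47-fold against tGCI26h (4.58 to 12.5), 6.62-fold against Sham (3.84 to 11.5) and 3.92-fold against IgG (2.49 to 6.35). The member novel_12738_x156 had 49, 11, 2 and 5 tags. It was the only member higher in HPC0h than in Sham, 4.70-fold (1.23 to 39.9), and it was above IgG 7.89-fold in HPC0h (3.16 to 25.4) and 6.61-fold in tGCI26h (2.12 to 24.3), which the normalized table gives as 4.75 and 3.92. Its variant 1 base shorter, novel_9050_x213, was listed in HPC0h alone, with 3 tags.

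The letters TAGCTCAG stood in 14 of 41 members (34.1%), in 38 of 3129 listed sequences (1.21%) and in 3 of the 182 unnamed sequences of 29 to 39 nt in families of 1 to 4 (1.65%). Their sequences are not printed, because the organism they come from was not established. As a group the 14 members held 758 CPM in HPC0h, 5110 in tGCI26h, 2205 in Sham and 401 in IgG. They overlap and are not independent: 873 of their 1137 tags in tGCI26h belong to 1 family of 3 nested sequences.

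That family consists of novel_7583_x251 of 28 nt and of 2 variants that begin at the same base and end 3 and 4 bases earlier, novel_2533_x716 and novel_10843_x180. The longest had 66 tags in HPC0h, 778 in tGCI26h, 182 in Sham and 54 in IgG, or 79.5, 3496, 1143 and 80.7 CPM. The tGCI26h library was highest, Sham came next, and HPC0h was at the level of IgG. The shorter variants had 50 and 45 tags in tGCI26h and were otherwise listed only as 2 tags of novel_2533_x716 in IgG. They made up 10.9% of the family's tags in tGCI26h and 3.57% in IgG. The normalized table gives the 2 variants 219 and 202 in tGCI26h, against 8 and 8 in Sham. In the counts both were measured through tGCI26h alone. As a family the sequences were 49.4-fold lower in HPC0h than in tGCI26h (38.4 to 64.4), 14.4-fold lower in HPC0h than in Sham (10.8 to 19.4), and in tGCI26h they exceeded Sham 3.43-fold (2.92 to 4.05). Over IgG they were 46.9-fold higher in tGCI26h (35.7 to 62.6) and 13.7-fold higher in Sham (10.1 to 18.8), whereas in HPC0h the ratio was 0.949 (0.655 to 1.38).

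A second sequence of 28 nt, novel_6388_x294, differs from novel_7583_x251 by 1 base. Counting from the 5' end, the difference is C17T, with the base of novel_7583_x251 first. The shared stretches on either side are shorter than 20 bases, which is why the rule put the 2 in different families. The counts of novel_6388_x294 were 398 in HPC0h, 142 in tGCI26h, 85 in Sham and 83 in IgG, or 479, 638, 534 and 124 CPM. Between the 3 Piwil2 libraries no ratio passed the rule, and it was above IgG in each: 3.86-fold in HPC0h (3.04 to 4.95), 5.14-fold in tGCI26h (3.90 to 6.83) and 4.30-fold in Sham (3.14 to 5.89). The number of tags of novel_7583_x251 per tag of novel_6388_x294 was 0.166 in HPC0h, 5.48 in tGCI26h, 2.14 in Sham and 0.651 in IgG. This ratio within a library does not depend on the library total. It was 32.9-fold lower in HPC0h than in tGCI26h (exact conditional interval 23.8 to 46.0), 12.9-fold lower in HPC0h than in Sham (8.81 to 18.9), and in tGCI26h it exceeded Sham 2.56-fold (1.84 to 3.54). The pair was chosen after its values were seen, and whether tags of one were counted as the other through a misread base was not tested.

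The shorter variant of novel_6388_x294, novel_1925_x925, lacks the last 2 bases and had 27 tags in HPC0h, 12 in tGCI26h, 7 in Sham and 7 in IgG. It made up between 6.35% and 7.79% of its family's tags in the 4 libraries. Like its longer partner it was above IgG in HPC0h, 3.11-fold (1.32 to 8.45), and in tGCI26h, 5.15-fold (1.87 to 15.4, and 3.38 by the normalized table), and its count was too low for Sham to be compared with IgG. Another near-copy of 28 nt, novel_19117_x110, differs from novel_6388_x294 by G4T and C16T, with the base of novel_19117_x110 first. It had 40, 30, 11 and 26 tags in the order HPC0h, tGCI26h, Sham and IgG, and was 3.47-fold higher in tGCI26h than in IgG (1.98 to 6.11) and 2.80-fold lower in HPC0h than in tGCI26h (1.68 to 4.61). Its family partner novel_16362_x125, of 25 nt, had 26, 7, 3 and 6 tags and was 3.49-fold higher in HPC0h than in IgG (1.40 to 10.4), or 2.14-fold by the normalized table.

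The other members with TAGCTCAG were less abundant. The nested pair novel_21474_x101 and novel_14800_x136, of 24 and 23 nt, had 24 and 9 tags in HPC0h, 27 and 13 in tGCI26h, 11 and 7 in Sham, and 16 and 11 in IgG. Both were lower in HPC0h than in tGCI26h, 4.20-fold (2.33 to 7.60) and 5.39-fold (2.13 to 14.3), and both were higher in tGCI26h than in IgG, 5.07-fold (2.64 to 10.1) and 3.55-fold (1.47 to 8.76). The member novel_20988_x102, of 21 nt, had 14, 11, 22 and 42 tags in the order HPC0h, tGCI26h, Sham and IgG. Sham stood highest in CPM, and the level was 8.20-fold lower in HPC0h than in Sham (4.01 to 17.3) and 2.80-fold lower in tGCI26h than in Sham (1.30 to 6.38). The pair novel_20102_x106 and novel_16348_x125 had between 6 and 13 tags in every library, and novel_20102_x106 was 4.78-fold lower in HPC0h than in Sham (1.91 to 11.8), 2.80-fold lower in HPC0h than in tGCI26h (1.04 to 7.24) and 3.55-fold higher in Sham than in IgG (1.44 to 8.60). The pair novel_12833_x154 and novel_9193_x209 had at most 5 tags in any library, was not listed in IgG, and was not measured.

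Another 15 members matched no miRNA, held none of these letters and were not end variants of a member that does. The most abundant was novel_21159_x102, of 22 nt, with 147 tags in HPC0h, 133 in tGCI26h, 98 in Sham and 333 in IgG, or 177, 598, 616 and 498 CPM. Its levels in tGCI26h, Sham and IgG did not differ by the rule, and in HPC0h it was 3.38-fold lower than in tGCI26h (2.65 to 4.30), 3.48-fold lower than in Sham (2.67 to 4.52) and 2.81-fold lower than in IgG (2.31 to 3.44). The same libraries gave 152, 59, 35 and 114 tags of novel_12078_x163, of 28 nt and 78.6% GC, or 183, 265, 220 and 170 CPM. None of the 6 comparisons of that sequence passed the rule. It was the only member with at least 10 tags in all 4 libraries for which this was so.

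The member novel_20861_x103, of 21 nt, was high in Sham, with 12 tags in HPC0h, 16 in tGCI26h, 54 in Sham and 8 in IgG. It was 23.5-fold lower in HPC0h than in Sham (12.4 to 48.2, and 13.9-fold by the normalized table), 4.72-fold lower in tGCI26h than in Sham (2.66 to 8.83) and 28.4-fold higher in Sham than in IgG (13.4 to 69.0). The member novel_17695_x117, of 23 nt, had 40, 43, 48 and 56 tags, or 48.2, 193, 301 and 83.7 CPM, in the order HPC0h, tGCI26h, Sham and IgG. It was 6.26-fold lower in HPC0h than in Sham (4.03 to 9.77) and above IgG both in tGCI26h, 2.31-fold (1.51 to 3.50), and in Sham, 3.60-fold (2.40 to 5.39). The members novel_10808_x180 and novel_12348_x160, of 21 and 27 nt, gave the same calls as novel_17695_x117 in all 6 comparisons. The first had 21, 36, 20 and 31 tags, and its HPC0h level lay 6.40-fold below tGCI26h (3.64 to 11.5). For the second, with 60, 36, 24 and 38 tags, this difference was 2.24-fold (1.44 to 3.44).

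The overlapping members novel_16963_x121 and novel_19895_x106, of 28 and 25 nt, share 21 bases, but neither holds the other. They had 69 and 33 tags in HPC0h, 56 and 24 in tGCI26h, 26 and 11 in Sham, and 82 and 69 in IgG. Both were lower in HPC0h than in tGCI26h, 3.03-fold (2.09 to 4.37) and 2.71-fold (1.54 to 4.73). Against IgG, novel_16963_x121 was 2.05-fold higher in tGCI26h (1.43 to 2.92), whereas novel_19895_x106 was 2.60-fold lower in HPC0h (1.69 to 4.06). The member novel_11858_x166, which shares 20 bases with a sequence of 36 nt, had 9, 13, 4 and 14 tags and was 5.39-fold lower in HPC0h than in tGCI26h (2.13 to 14.3). The member novel_20741_x103, which lies whole in a sequence of 29 nt, had 12, 4, 4 and 7 tags and passed in no comparison.

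The other members had fewer than 10 tags in every library and could not be compared. The members novel_10291_x188, with 8 tags in HPC0h, 4 in tGCI26h and 6 in IgG, and novel_5283_x354, with 2 in tGCI26h and 8 in IgG, were not listed in Sham. Sham had 4 tags and IgG 2 tags of novel_20683_x104. The nested pair novel_5992_x311 and novel_3671_x503 had 2 tags each in IgG alone, novel_3641_x507 had 2 tags in tGCI26h alone, and novel_21865_x100 had 2 tags in HPC0h alone. The lowest count listed in any library was 2, so a blank cell is not a measured 0.

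The rule for a difference asked for 3 things: 10 or more tags in one library or the other, CPM that differed 2-fold or more, and a 95% interval without 1 in it. It was applied to every listed sequence, and sequences that reached 10 tags are called measured. A member that reached them in a single library could differ by that choice alone, so the counts of members describe the tables and support nothing further. A minimum of 10 tags is 12 CPM in HPC0h, 44.9 in tGCI26h, 62.8 in Sham and 15.0 in IgG, so that sequences at a low level could be compared only through the deeper libraries. The 6 comparisons share libraries and are given side by side.

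In HPC0h against tGCI26h, members of each sequence group were lower in HPC0h. The rule found 19 of 26 measured members lower and none higher, where 21% of all 2036 measured sequences were lower and 21% higher. The lower members were 8 of 11 measured with TAGCTCAG, 2 of 4 with box letters, 8 of 10 with neither, and the let-7b match. The summed tags of all members were 4.70-fold lower (4.41 to 5.00), or 4.62-fold (4.29 to 4.96) without novel_4906_x381. Of the 2225 member tags in tGCI26h, 873 belong to the novel_7583_x251 family. Members with TAGCTCAG were 6.74-fold lower as a sum (6.11 to 7.44), but 1.75-fold lower (1.5 to 2.03) without that family. The second value rests largely on the novel_6388_x294 family, with 425 of the remaining 564 tags in HPC0h and 154 of 264 in tGCI26h. Without the novel_7583_x251 family 5 of 8 measured members of the group were still lower. The sum of members with box letters was 2.73-fold lower (2.11 to 3.5), and that of members with neither 2.8-fold (2.46 to 3.18). The median log2 ratio (with 0.5 tags added to each count) was -1.68 over the measured members and 0.12 over all measured sequences. Among the unnamed sequences of 29 to 39 nt in families of 1 to 4, 40 of 109 were lower and 14 higher. Their median was -0.61, and their sum was 1.79-fold lower (1.72 to 1.86). The 76 other sequences of 28 nt or less went the same way as the members: 13 of 21 measured were lower and 0 higher. Their median was -1.74, near that of the members, and their sum was 3.08-fold lower (2.69 to 3.52). The 7 members that were not called were novel_6388_x294, novel_1925_x925, novel_16362_x125, novel_17222_x119, novel_12738_x156, novel_12078_x163 and novel_20741_x103.

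In HPC0h against Sham, 12 of 22 measured members were lower and 1, novel_12738_x156, was higher, beside 15.9% lower and 25.4% higher among 2020 measured sequences. The members with the highest fold were novel_20861_x103 and novel_7583_x251, given above. Summed member tags were 2.84-fold lower in HPC0h (2.62 to 3.08), and those with TAGCTCAG were 2.91-fold lower (2.54 to 3.32) or, without the novel_7583_x251 family, 1.56-fold lower (1.31 to 1.86). The last value too rests largely on the novel_6388_x294 family, with 425 of the remaining 564 tags in HPC0h and 92 of 169 in Sham. The median log2 ratio was -1.19 over the members and 0.58 over all measured sequences. Among the longer unnamed sequences 28 of 105 were lower and 13 higher, with a median of -0.06. Of the other sequences of 28 nt or less, 3 of 20 measured were lower and 0 higher, with a median of 2.13. Their sum was 1.30-fold lower (1.06 to 1.59). Only 18 of these 76 sequences were listed in Sham. For a sequence blank there the log2 ratio rests on the 0.5 tags added and on library depth, so this median is not a measured level.

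In tGCI26h against Sham, members moved in both directions. Of 24 measured members 5 were higher and 3 lower, beside 27.2% higher and 13.9% lower among 1366 measured sequences, shares near those of the members. The higher ones were the 3 nested sequences of the novel_7583_x251 family, novel_4298_x434 and the let-7b match, and the lower ones were novel_17222_x119, novel_20861_x103 and novel_20988_x102. The sum was 1.65-fold higher in tGCI26h (1.53 to 1.78). Members with TAGCTCAG outside the novel_7583_x251 family had a ratio of 1.12 (0.918 to 1.36), those with box letters 0.892 (0.669 to 1.19), and those with neither 0.925 (0.799 to 1.07). The median log2 ratio was 0.36 over the members and 0.36 over all measured sequences. Of the other sequences of 28 nt or less, 9 of 12 measured were higher and 0 lower, with a median of 3.41. That median too depends on the 0.5 tags added to blank Sham cells, since 18 of the 76 sequences were listed in Sham.

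A ratio over IgG measures a difference in composition and not the amount of RNA recovered. Counts of members above and below IgG are given beside the shares of all measured sequences. In tGCI26h 16 of 28 measured members were higher and 4 lower, beside 16.6% higher and 19.5% lower among 1961 measured sequences. In Sham 10 of 24 were higher and 4 lower, beside 12.5% and 28.6% of 1919. In HPC0h 4 of 28 were higher and 9 lower, beside 17.8% and 17.1% of 2159, so that the share higher (14.3%) was near that of all sequences. The 9 lower ones include the nested novel_19388_x108 family and novel_5581_x335, which were measured through IgG alone. The higher members in HPC0h were novel_6388_x294 and, measured through HPC0h alone, novel_1925_x925, novel_16362_x125 and novel_12738_x156. Over the members, the median log2 ratio to IgG was -0.57 in HPC0h, 1.35 in tGCI26h and 0.82 in Sham. Over all measured sequences it was -0.10, -0.26 and -0.62 in the same order. Of the 76 other sequences of 28 nt or less, 11 of 25 measured were higher and 2 lower in tGCI26h, with a median of 0.98. In Sham 1 of 19 was higher and 8 lower (median -2.57), and in HPC0h 4 of 26 were higher and 7 lower (median -0.68). The Sham median depends on the 0.5 tags added to blank cells, since 18 of the 76 were listed in Sham.

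Summed over all members, the ratio to IgG was set by the let-7b match. It was 0.0672 in HPC0h (0.0640 to 0.0706), 0.316 in tGCI26h (0.302 to 0.330) and 0.191 in Sham (0.179 to 0.204). Without novel_4906_x381 the ratios were 0.774 (0.718 to 0.835) in HPC0h, 3.57 (3.33 to 3.84) in tGCI26h and 2.29 (2.10 to 2.50) in Sham, so that the direction turned in tGCI26h and Sham. Members with TAGCTCAG were above IgG as a sum in each library, 1.89-fold in HPC0h (1.64 to 2.19), 12.8-fold in tGCI26h (11.2 to 14.6) and 5.50-fold in Sham (4.68 to 6.47). Without the novel_7583_x251 family these values were 2.14 (1.83 to 2.52), 3.74 (3.11 to 4.51) and 3.35 (2.72 to 4.12). The HPC0h ratio rests largely on the novel_6388_x294 family, which held 425 of the group's 630 tags in HPC0h and 90 of 268 in IgG. In HPC0h 3 of 9 measured members of the group were higher than in IgG and 1 was lower. A sum without both families was not computed. Members with box letters summed to 183 CPM in HPC0h, 499 in tGCI26h, 559 in Sham and 538 in IgG, and their sum was 2.94-fold lower in HPC0h than in IgG (2.43 to 3.58). Of their 360 IgG tags 181 belong to the nested novel_19388_x108 family. Without it the ratio to IgG was 0.657 in HPC0h (0.524 to 0.822), 1.86 in tGCI26h (1.46 to 2.38) and 2.04 in Sham (1.56 to 2.65), against 0.340, 0.927 and 1.04 with it. The longer unnamed sequences had ratios to IgG of 0.941 in HPC0h (0.910 to 0.974), 1.68 in tGCI26h (1.61 to 1.76) and 1.33 in Sham (1.26 to 1.40).

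The first base of the members was G more often, and T less often, than in the table as a whole. Of the 41 members 18 began with G (43.9%) and 5 with T (12.2%), beside 24.6% and 24.7% of all listed sequences and 23.6% and 23.1% of the longer unnamed sequences. All 14 members with TAGCTCAG, which overlap and are not independent, began with G and so make up most of the 18. Base 10 was A in 11 members (26.8%), beside 24.4% of all listed sequences. Counted by tags, T at the first base made up 32.9% of member tags in HPC0h, 31.5% in tGCI26h, 31.3% in Sham and 95% in IgG, and without novel_4906_x381 it made up 12.4%, 8.96%, 13.8% and 25.3%. The median GC content was 53.8% over the members, with a range of 36.4% to 78.6%, and 54.3% over all listed sequences.

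Of the 10 families that held 2 or 3 members, 7 differed at the 3' end only, by 1 to 4 bases. In 1 family, that of novel_5992_x311, the 2 members differed by a base at the 5' end, and in 2 families neither member held the other. The members were listed in more libraries than the table as a whole, 25 of 41 (61.0%) in all 4 libraries against 48.4% of all sequences. Just inside the length limit, the 8 members of 28 nt summed to 893 CPM in HPC0h, 4813 in tGCI26h, 2205 in Sham and 550 in IgG. Just outside it, the 6 unnamed sequences of 29 nt in families of 1 to 4 summed to 83.1, 117, 371 and 112 CPM. Much of the sum at 28 nt came from single sequences. Of it, novel_7583_x251 gave 3496 CPM in tGCI26h and 1143 in Sham, and novel_6388_x294 gave 479 in HPC0h.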

How the data were processed

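Small RNA libraries from RIP were analysed from 2 tables deposited by the authors. Per the file headers, the first holds raw tag counts per sequence and the second normalized tag counts, which were treated as a score because the deposited values are whole numbers of a scaling that no source used here names. Cutadapt 1.9.3 and Novoalign 3.02.12 appear in the submitters' processing notes, without their use. The sources used here do not give the genome build or the counting. Amplicons were selected for inserts near the length of piRNAs, per the labels' protocols. Of the raw table, 40 lines were empty and not analysed here. Column IgG carries its library's name, and columns P0, R26 and S were matched to HPC0h, tGCI26h and Sham by the time or first letter in the titles, which is a match in part only. No column of values was left unused.

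Blank cells were taken as 0 counts. Members and families were found from the sequences with a shared stretch of 20 bases. Counts were divided by the total of listed tags in each library, since totals of sequenced reads were not at hand. Intervals are exact (Clopper-Pearson, or conditional for a ratio of ratios, scipy 1.17.1), and the call rule was run on all 3129 sequences. No p-value was computed. The steps were tested on simulated counts. The alternatives used TMM factors (edgeR 4.0.16), median-of-ratios size factors, the normalized table, a minimum of 50 counts, blanks as 1 count, sums by family and sums without novel_4906_x381 or, added later, without the novel_19388_x108 family. Sequences were matched to the RefSeq miRNA table (GRCr8) and to 33469 promoter windows, where no member matched on either strand. Motifs were searched as TAGCTCAG and TGATGA on both strands, and CTGA in the last 6 bases of the listed strand. They were chosen after the sequences had been seen. Members and lists were chosen with earlier results of these data known. The named members were the 12 with the largest mean CPM, up to 5 higher and 5 lower per comparison by ratio, those matching a reference, up to 3 per library of those listed there alone, and the 4 largest families. All other members are also named to account for each.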

Additional observations from a re-analysis of the deposited data

Results flagged for a closer look

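The normalized table lists 41 unnamed sequences of 28 nt or less that the raw table does not hold, and novel_5861_x318, of 25 nt, has a value of 10 in Sham against 4 in IgG. It was picked out because its value is at least 10 and at least 2-fold the IgG value. It shares at least 20 bases with novel_6388_x294 and novel_1925_x925, and its values are 2 in HPC0h and 7 in tGCI26h. Values of this size carry little weight, since the normalized table gives members that are blank in the raw Sham column values of 5 to 12, and novel_10291_x188 and novel_5581_x335 also have 10 there. No other of the 41 passed this limit in any Piwil2 library, and none had raw counts to compare.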

How the results depend on the processing

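No paired analysis was possible because each group has 1 library and the labels give no replicate numbers. With 1 library per group no replicate could be left out. Of 387 recomputed ratios of single named members, 3 moved beyond the counting interval. The sign changed in 12, all in 6 comparisons of members that were not called and had a log2 ratio of at most 0.173 in size, and in 0 of those called higher or lower. Sums of members with box letters without the novel_19388_x108 family were added after seeing the data. Single members with a blank were not recomputed with blanks as 1 count. Of 30 recomputed sums 16 stayed within the counting interval. The log2 ratio of summed members turned from -1.663 to 1.837 in tGCI26h against IgG and from -2.388 to 1.196 in Sham against IgG without novel_4906_x381, and in HPC0h against IgG it was -0.369 without it, since that sequence holds most member tags in IgG. With TMM factors the log2 ratio was -1.992 in HPC0h against tGCI26h, 0.520 in tGCI26h against Sham, -3.753 in HPC0h against IgG, -1.761 in tGCI26h against IgG and -2.281 in Sham against IgG. With median-of-ratios factors it was -2.090 in HPC0h against tGCI26h, 0.508 in tGCI26h against Sham, -3.758 in HPC0h against IgG and -2.176 in Sham against IgG. The normalized table gave -2.095 in HPC0h against tGCI26h and -3.735 in HPC0h against IgG. The normalized table, which has no counting interval, called 2 members higher and 21 lower in HPC0h against Sham, 8 higher and 7 lower in tGCI26h against Sham, and 18 higher and 7 lower in Sham against IgG. A minimum of 50 counts left fewer members to measure. It gave 0 higher and 6 lower in HPC0h against Sham, 7 lower in HPC0h against tGCI26h, 3 higher in tGCI26h against Sham, and 1, 5 and 5 higher over IgG in HPC0h, tGCI26h and Sham. Summing by family gave 3 higher in tGCI26h against Sham, 2 higher in HPC0h against IgG, and 2 lower over IgG in each of tGCI26h and Sham. Weighting by tags moved the share of first base T to between 31.3% and 95% (32.9% in HPC0h, 31.5% in tGCI26h), and of A at base 10 to 94.8% in IgG. The members in families of 1 sequence had a median length of 22 nt. Sham is the shallowest library, and members under 62.8 CPM there could be compared only through the other library. Weighting of length and GC content by tags was not run.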
